A study of Mus musculus with 2 samples.

Results

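The label S-phase thymocytes without Cd8 stands for immature T-lineage cells caught while copying their DNA. Such cells hold no or at most a trace of the CD8 coreceptor transcripts. The cells here were chosen by measured RNA counts alone, with no measure of DNA content. The genes of the choice are therefore not findings. Kept barcodes had at least 500 genes, at least 1000 UMIs (unique molecular identifiers, each standing for 1 captured RNA molecule) and at most 10% mitochondrial UMIs. A cell then needed at most 1 UMI of Cd8a and Cd8b1 together, no Foxp3 UMI, at least 3 UMIs of the S-phase genes Rrm2, Clspn and Cdc6 together, and at most 3 UMIs of the G2 and M phase genes Ube2c, Ccnb1, Cdc20 and Plk1 together. This gave 328 of 7501 kept barcodes in the cKO library and 413 of 7137 in the WT library, or 741 of 14638 in all.

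The mutant mice were labelled SETDBf/fCD4-Cre (cKO) and were compared with mice labelled WT, with 1 library per genotype. In both groups thymus cells were enriched with beads against CD25, the interleukin-2 receptor alpha chain that Il2ra encodes, and were captured untreated on the 10x Genomics platform with its v3.1 kit, which reads 3′ ends. SETDB proteins are histone H3K9 methyltransferases, and which of Setdb1 and Setdb2 carries the floxed allele is not stated in the label. The number, age and sex of the mice, and whether a library pooled several, are not given in the sources used here. CD4-Cre is known to act from late in the double-negative (DN) stage, which has neither CD4 nor CD8, and deletion in these cells was not measured.

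Both SETDB genes were read in the S-phase cells of both genotypes. Setdb1 had 247 UMIs in cKO cells and 347 in WT cells, or 32.1 and 35.3 CPM (the usual counts-per-million scale, with UMIs summed over these cells), a ratio of 0.910 (0.770 to 1.07). For Setdb2 there were 49 UMIs in cKO cells and 71 in WT cells, or 6.37 and 7.22 CPM, a ratio of 0.882 (0.600 to 1.29). Neither interval excludes 1, and because the assay reads the 3′ end of a transcript, which can lie outside the deleted exons, these values do not check the genotype.

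The S-phase cells were deeply read. Their UMIs summed to 7689522 in the cKO library and 9830113 in the WT library, with a median of 22073.5 per cell in cKO (3112 to 51335) and 23026 in WT (5064 to 49279). The median over all kept barcodes was lower and less even, 4854 UMIs in cKO and 7882 in WT. The mitochondrial share of UMIs had a median of 3.26% in cKO S-phase cells and 3.69% in WT ones. Of the kept barcodes 14 occurred in both libraries, and 0 of those were S-phase cells. A doublet caller marked 1 cKO and 12 WT S-phase cells, which were kept. Xist had 2 UMIs in the cKO S-phase cells and 0 in the WT ones, and Y-linked genes were read in both, at 523 and 657 CPM.

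The share of kept barcodes that these cells formed was 4.37% in cKO (3.92 to 4.86) and 5.79% in WT (5.26 to 6.35), a ratio of 0.756 (0.652 to 0.876). Among kept barcodes without Cd8 and Foxp3 the shares were 10.5% of 3128 in cKO and 10.8% of 3823 in WT, a ratio of 0.971 (0.837 to 1.12). Among S-phase plus G2 and M phase cells without Cd8, S-phase cells made up 36.8% in cKO and 37.96% in WT. The lower share in cKO was therefore seen against all kept barcodes and not against the cells without Cd8 and Foxp3. Resting cells with both Cd8 and Cd4 made up 2260 of the kept barcodes in cKO and 1565 in WT. The cells were enriched with beads before capture, so a share of kept barcodes is not a share of the thymus. The rule counts raw UMIs. When barcodes of at least 10000 UMIs (2316 in cKO, 2805 in WT) were thinned to that depth and shallower ones dropped, the rule chose 430 cKO and 546 WT cells, of which 235 and 307 were among the cells described here, and the ratio was 0.954. That value changes depth, denominator and cells at once. Intervals here and below are 95% intervals for counting error only. With 1 library per genotype nothing measures the spread between mice, so no test between genotypes is given.

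During S phase a cell fires the replication origins it licensed in G1, copies its DNA at forks that the MCM helicase opens and the PCNA clamp holds, and makes histones to pack the copies. E2F transcription factors switch on much of this machinery at the G1 to S border. In the thymus, early DN cells that express Kit divide first, then pause to rearrange the T cell receptor beta locus under Notch signals and Ptcra, the pre-T-cell receptor alpha chain, and divide again once a beta chain has formed. CD8 appears in the course of that second burst, and the alpha chain encoded by Trac follows it.

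E2F-type motifs were looked for before the starts of the replication genes, since E2F factors act on genes of this kind. The stretches shown are those of the origin licensing genes, 7 of 14 of which had a match, and of Clspn, a gene of the rule. The motifs searched were TTTCGCGC, TTTGGCGC, TTTCCCGC and TTTGGCGG on both strands of the 250 bases upstream, in RefSeq windows of GRCm38.p6. Some of these overlap at 1 site, as in Mcm5 and in the first Mcm6 stretch. Each stretch is 30 bases on the gene's strand, 5′ to 3′, with the match in capitals.

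Orc1, chr4:108579416-108579445, plus strand: ttcggttagtgGCGCGAAAagttttctcct

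Orc3, chr4:34614965-34614994, minus strand: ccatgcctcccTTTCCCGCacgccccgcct

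Cdc6, chr11:98908002-98908031, plus strand: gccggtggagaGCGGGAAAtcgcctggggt

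Mcm5, chr8:75109345-75109374, plus strand: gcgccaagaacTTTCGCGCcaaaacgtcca

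Mcm6, chr1:128359797-128359826, minus strand: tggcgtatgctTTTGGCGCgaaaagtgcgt

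Mcm6, chr1:128359734-128359763, minus strand: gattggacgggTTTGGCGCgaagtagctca

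Mcm7, chr5:138172030-138172059, minus strand: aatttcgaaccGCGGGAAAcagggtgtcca

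Mcmbp, chr7:128740436-128740465, minus strand: ggtggccgcgaTTTCCCGCcattgtgagaa

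Clspn, chr4:126556848-126556877, plus strand: gcagccgcaacCCGCCAAAccaacgcaaat

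A motif lay in the windows of 7 of 14 origin licensing genes with a RefSeq window, from 25 bases before the start in Mcmbp to 165 in Mcm7. It lay in 16 of 89 replication genes (18.0%), in 8 of 24 E2F and G1/S regulators, and in 610 of all 27025 genes (2.26%). No match was found for 21 nucleotide supply genes or for 29 G2 and M phase genes. Of the S-phase markers, Clspn and Cdc6 had a match and Rrm2, Pclaf and Tk1 had none in these windows. A match describes the sequence and was not tested as a site.

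The label S phase rests on Rrm2, the small subunit of ribonucleotide reductase, Clspn, an adaptor of the replication checkpoint, and Cdc6, a loader of the MCM helicase. Together they had a median of 8 UMIs per cell in cKO and 10 in WT, and between 3 and 33 in each genotype. The label could be checked with Pclaf, a PCNA partner, and Tk1, thymidine kinase, which the rule did not use. Pclaf was found in 284 of 328 cKO cells (86.6%, 82.4 to 90.1) and 359 of 413 WT cells (86.9%, 83.3 to 90.0). Its UMIs per cell ran from 0 through a median of 10 to 60 in cKO, and from 0 through 11 to 70 in WT. Tk1 was found in 269 cKO cells (82.0%) and 338 WT cells (81.8%). Both genes mark cycling cells and do not tell S phase from G2 and M phase, whose cells without Cd8 had Pclaf in 98.4% of cells in both genotypes and Tk1 in 85.1% of cKO and 86.4% of WT cells. The genotypes overlapped in UMIs per cell.

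Resting cells, chosen to hold no UMI of the 7 cycle genes of the rule, gave a background that is low in part by that choice. In resting double-positive (DP) cells, which carry CD4 and CD8, Pclaf was found in 2.57% of cKO and 1.47% of WT cells, at a median of 2334 and 2549 UMIs. Resting Ptcra-positive cells without Cd8, with no UMI of the 7 cycle genes of the rule, had Pclaf in 4.13% of cKO and 3.23% of WT cells, at a median of 8018 and 8312 UMIs. After thinning each cell to 2000 UMIs, Pclaf was found in 57.3% of cKO and 51.1% of WT S-phase cells, against 1.03% and 0.565% of resting Ptcra-positive cells.

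At the edges of the rule the levels changed in steps rather than breaks. Cells just inside, with 3 UMIs of the S-phase genes (38 in cKO, 38 in WT), had 124 CPM of Pclaf in cKO and 129 in WT. Cells just outside, with 2 UMIs (66 and 78), had 86.4 CPM in cKO and 63.4 in WT. Cells with 10 or more UMIs (145 and 208) had 758 CPM in cKO and 779 in WT. At the other border, the G2 and M phase list summed to 2089 CPM in cKO and 1979 in WT with 3 UMIs of the 4 excluded genes, and to 2288 in cKO and 2282 in WT with 4 UMIs, just outside. At the Cd8 border, Trac had 21.3 CPM in cKO and 31.9 in WT with 1 Cd8 UMI, and 57.3 in cKO and 17.5 in WT with 2, in 19 and 18 cells.

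**Figure D1:**
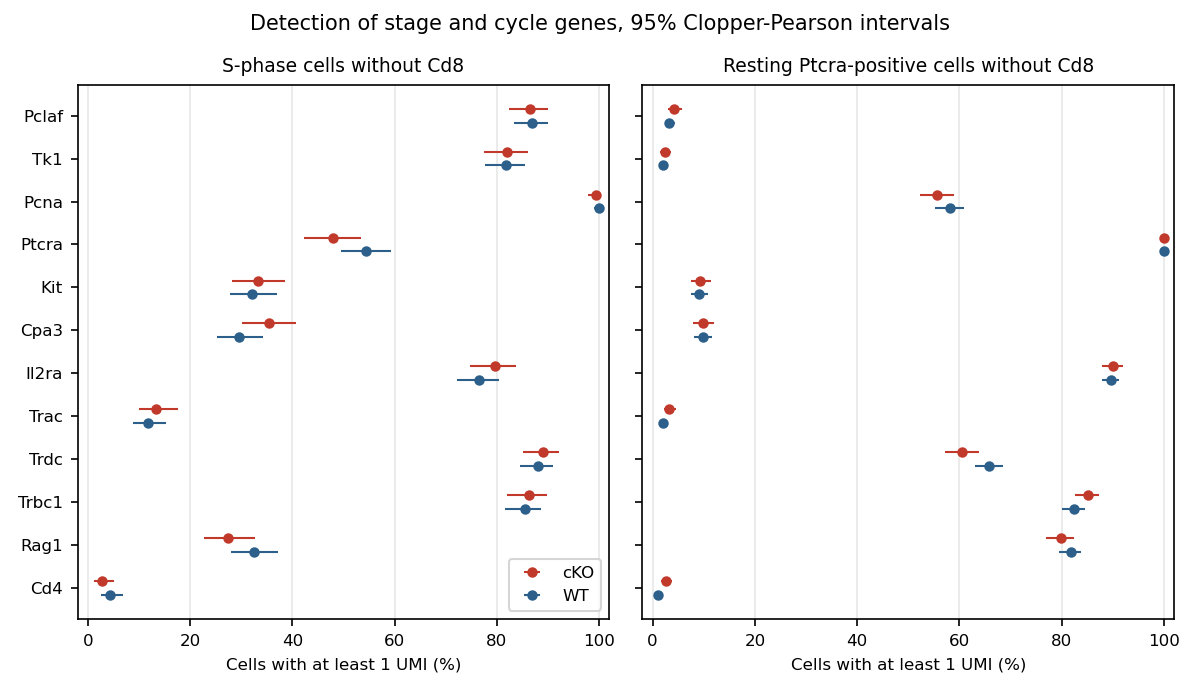
Share of cells with at least 1 UMI of each gene (x axis, percent), in S-phase cells without Cd8 (left) and resting Ptcra-positive cells without Cd8 (right). Points are the cKO (red) and WT (blue) libraries and bars are 95% Clopper-Pearson intervals; Pclaf stood at 86.6% in cKO and 86.9% in WT S-phase cells and at 4.13% and 3.23% in resting cells, while Ptcra is 100% in the resting cells because it chose them.

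The stage of the S-phase cells was mixed. Ptcra was found in 157 cKO cells (47.9%, 42.3 to 53.4) and 225 WT cells (54.5%, 49.5 to 59.4), a difference of -6.61 percentage points (-13.8 to 0.626). Kit, the stem cell factor receptor of early progenitors, was found in 109 cKO cells (33.2%, 28.2 to 38.6) and 133 WT cells (32.2%, 27.7 to 36.9), a difference of 1.03 points (-5.71 to 7.84). Trac was found in 44 cKO cells (13.4%, 9.92 to 17.6) and 49 WT cells (11.9%, 8.91 to 15.4), a difference of 1.55 points (-3.22 to 6.51). All 3 intervals include 0, which does not show that the genotypes are alike.

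For Kit, resting DP cells gave a background, because they should lack it. Kit was found in 0.973% of cKO and 0.958% of WT resting DP cells, and after thinning to 2000 UMIs in 0.566% and 0.400% of them, against 6.098% of cKO and 3.63% of WT S-phase cells. Thinned shares in S-phase cells were 9.15% in cKO and 12.6% in WT for Ptcra and 3.66% and 1.21% for Trac. No set of cells gave a clean background for Ptcra and Trac. The B cells of the same libraries, with a median of 8510 UMIs in cKO and 6760.5 in WT, had Ptcra in 10.5% of 19 cKO and 13.6% of 44 WT cells, Kit in 26.3% and 11.4%, and Trac in 5.26% and 0%, where 0 of 44 allows a share of up to 8.04%. Those barcodes also held thymocyte transcripts, with Trbc2 in 42.1% and 36.4% of them and Dntt in 31.6% and 34.1%. Thinned, they had Ptcra in 5.26% of cKO and 6.98% of WT cells, Kit in 0% and 2.33%, and Trac in 0% of both. How much of the Trac and Ptcra read in S-phase cells is background could therefore not be told. Thinned, Kit was found in a larger share of S-phase cells than of resting DP or B cells in both genotypes. The B cells were few, so the exact background part of Kit could not be told either.

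Kit was read both with and without Ptcra. Of the cKO cells 40 held both and 69 held Kit without Ptcra, and of the WT cells 68 held both and 65 held Kit without Ptcra. None of Kit, Ptcra and Trac was found in 83 cKO cells (25.3%) and 109 WT cells (26.4%). Trac with at least 2 UMIs was found in 17 cKO cells (5.18%) and 15 WT cells (3.63%). In these, Cd2 had 78.5 CPM in cKO and 113 in WT, against 9.34 and 6.89 CPM in the S-phase cells with Kit or Cpa3.

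Transcripts of the other receptor chains were found in most cells. Trdc, the delta constant gene, was found in 89.0% of cKO and 88.1% of WT cells, Trbc1 in 86.3% and 85.5%, and Trgc1 in 95.4% and 93.9%. The constant genes of the beta and gamma loci are near copies of each other, so the split between Trbc1 and Trbc2, or among Trgc1, Trgc2 and Trgc4, is uncertain. Il2ra, the target of the beads, was found in 261 cKO cells (79.6%) and 316 WT cells (76.5%). Rag1, which cuts the receptor loci, was found in 27.4% of cKO and 32.4% of WT S-phase cells, against 79.8% and 81.8% of resting Ptcra-positive cells, which were read less deeply. Cd4 was found in 9 cKO cells (2.74%) and 18 WT cells (4.36%).

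Splitting the cells by stage genes separated an early set. Kit or Cpa3, a mast cell carboxypeptidase gene also read in early thymic progenitors, was found in 163 cKO cells (49.7%, 44.2 to 55.2) and 191 WT cells (46.2%, 41.4 to 51.2). A further 100 cKO cells (30.5%) and 141 WT cells (34.1%) had Ptcra without Kit and Cpa3, and 65 cKO cells (19.8%) and 81 WT cells (19.6%) had none of these 3 genes. The sets differed in genes that did not define them. Lyl1, a helix-loop-helix factor of progenitors, had 29.3 CPM in cKO and 28.2 in WT cells with Kit or Cpa3. In cells with Ptcra alone Lyl1 was at 0 CPM in cKO and 0.285 in WT, and in cells with none of the 3 genes at 0.674 and 2.03. Hhex, a homeobox factor of progenitors, followed with 23.4 CPM in cKO and 21.8 in WT cells with Kit or Cpa3, and 0.850 and 0.570 CPM in cells with Ptcra alone.

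Hes1, Il2ra and Trgc1 were highest in the early set in both genotypes, and Dtx1 and Notch1 differed from them in part. Hes1, a Notch target, had 166 CPM in cKO and 165 in WT cells with Kit or Cpa3, 82.4 and 95.2 with Ptcra alone, and 52.6 and 45.2 with none. Il2ra had 332 CPM in cKO and 340 in WT cells with Kit or Cpa3, 211 and 158 with Ptcra alone, and 156 and 106 with none. Trgc1 had 812 CPM in cKO and 751 in WT cells with Kit or Cpa3, and 294 and 273 with Ptcra alone. Dtx1, another Notch target, had 9.86 CPM in cKO and 13.8 in WT cells with Kit or Cpa3, and 19.1 and 14.3 with Ptcra alone. The receptor gene Notch1 had 185 CPM in cKO and 215 in WT cells with Kit or Cpa3, and 226 and 183 with Ptcra alone, so its order differed between genotypes. Cd3d, a signalling chain of the receptor, ran the other way, with 315 CPM in cKO and 371 in WT cells with Kit or Cpa3, and 661 and 591 with Ptcra alone. Tcf7, the T-lineage factor TCF1, also ran that way, with 452 CPM in cKO and 524 in WT against 636 and 758 CPM.

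Replication genes differed little between these sets, though their sum rose in the same order in both genotypes. The sum without the genes of the rule was 12782 CPM in cKO and 13670 in WT cells with Kit or Cpa3. It was 13726 and 13958 CPM with Ptcra alone, and 13982 and 14012 CPM with none. Pcna had 553 CPM in cKO and 581 in WT cells with Kit or Cpa3, 622 and 611 with Ptcra alone, and 652 and 640 with none. Mcm6, a subunit of the helicase, lay between 486 and 521 CPM in all 6 combinations of set and genotype. The order of the stage sets was the same in both genotypes for Hes1, Il2ra, Cd3d and Pcna. Each set was chosen on detection in cells of unequal depth, with medians of 21207 to 24066 UMIs in cKO and 21831 to 25117 in WT, and the part of depth in the differences was not tested.

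**Figure D2:**
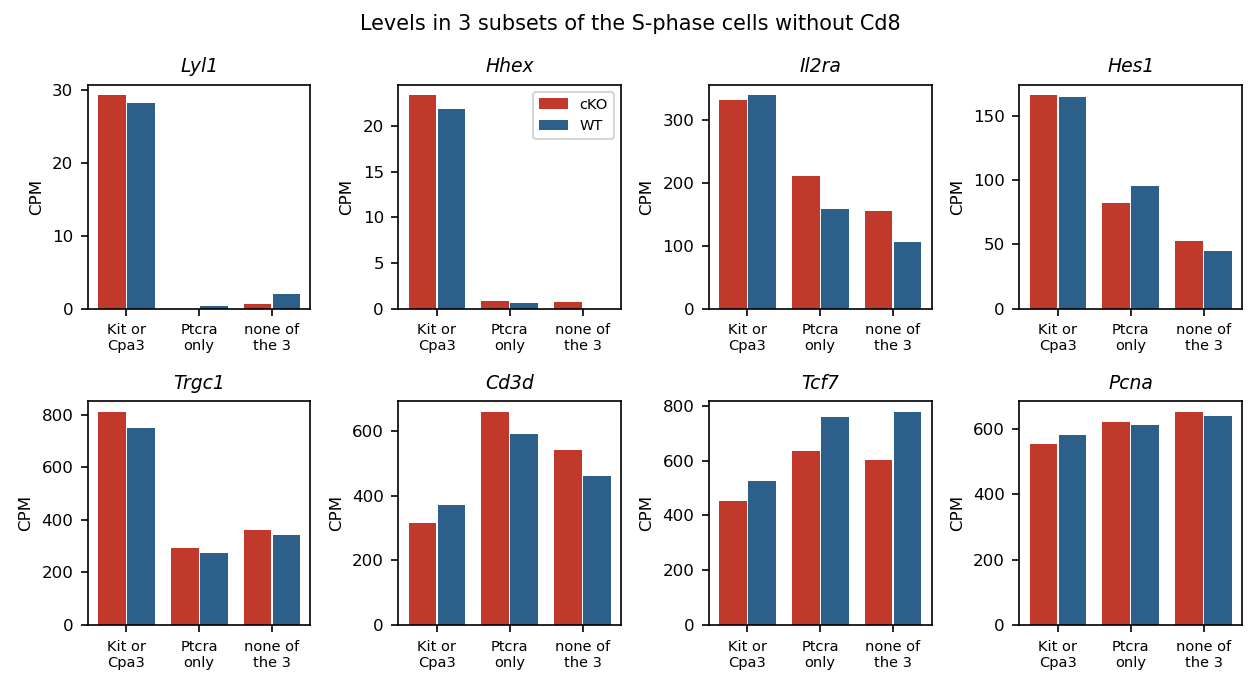
Levels (y axis, CPM of the UMIs summed over the set, bars from 0) of 8 genes in S-phase cells with Kit or Cpa3, with Ptcra alone, and with none of the 3 genes, cKO (red) left of WT (blue). Lyl1 and Hhex stood at 29.3 and 23.4 CPM in the cKO cells with Kit or Cpa3 and near 0 in those with Ptcra alone; each bar is 1 library, with no replicates.

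The chosen cells formed a gradient, whose place in the cell cycle was not measured. Grouped by their UMIs of Ube2c, Ccnb1, Cdc20 and Plk1, there were 117, 110, 56 and 45 cKO cells and 124, 123, 95 and 71 WT cells with 0, 1, 2 and 3 UMIs. Pclaf had 321, 545, 691 and 831 CPM in these groups of cKO cells, and 306, 544, 662 and 818 CPM in those of WT cells. The list called core histone genes here, whose RNA is made with DNA, also holds linker H1 genes. It summed to 1444, 2046, 2662 and 3580 CPM in cKO and 1421, 2235, 2593 and 3578 CPM in WT. The origin licensing genes did not climb, with sums between 2581 and 2794 CPM in cKO and between 2755 and 2815 CPM in WT. The G2 and M phase list rose, from 785 CPM in cKO and 715 in WT with 0 UMIs to 2089 and 1979 CPM with 3. Just outside the rule, with 4 UMIs, core histones were higher still, at 4244 CPM in cKO and 4542 in WT. These values do not tell a gradient within S phase from one that runs into G2 and M phase. Both genotypes thus showed the same order of groups for Pclaf and the core histones. Median depth also differed between these groups, at 18758, 21690.5, 24347.5 and 26052 UMIs in cKO and 19735, 24334, 26263 and 24837 UMIs in WT, and its part was not tested. Most core histone RNAs lack a poly(A) tail, which this assay primes from, and their genes are near copies, so single histone genes are uncertain.

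**Figure D3:**
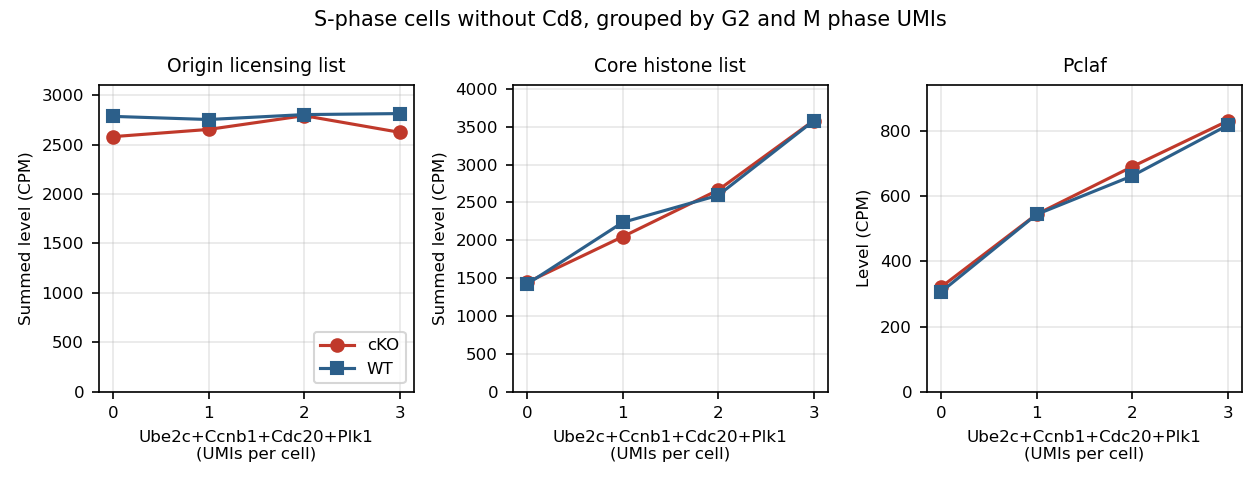
S-phase cells without Cd8 grouped by their UMIs of Ube2c, Ccnb1, Cdc20 and Plk1 (x axis, UMIs per cell): summed level of the origin licensing list without Cdc6, summed level of the core histone list, and level of Pclaf (y axes, CPM), in cKO (red circles) and WT (blue squares). Core histones reached 3580 CPM in cKO and 3578 in WT at 3 UMIs, against 1444 and 1421 CPM at 0, while licensing genes stayed between 2581 and 2815 CPM.

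Against resting Ptcra-positive cells without Cd8, the replication machinery was higher in S-phase cells, which in part follows from the choice of cells and is given as a description. Of all 11741 genes with at least 20 UMIs in the cells compared, 10.1% were at least 1.5-fold higher and 13.6% at least 1.5-fold lower in both genotypes. Of 107 replication genes other than those of the rule, 94 were higher and 2 lower, with a median log2 fold of 1.70 in cKO and 1.68 in WT, against -0.10 and -0.12 over all genes. Their sum was 13302 CPM in cKO and 13841 in WT S-phase cells, against 3788 and 3698 CPM in resting cells. By role, 12 of 15 licensing genes, 13 of 14 firing and helicase genes, 27 of 29 polymerase, clamp and ligase genes, 19 of 22 nucleotide supply genes and 23 of 27 fork protection genes were higher. Tyms, which makes thymidylate, had 261 CPM in cKO and 277 in WT S-phase cells, against 22.5 and 20.4 CPM in resting cells. Of 25 glycolysis and MYC target genes, 17 were higher and 0 lower.

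Genes of the paused stage were lower in the S-phase cells, which in part follows from choosing the resting cells by Ptcra. All resting cells held Ptcra, against 47.9% of cKO and 54.5% of WT S-phase cells. Stage and cycle thus differed together, and their parts were not tested. Of 20 DN3 and Notch genes other than Ptcra, which chose the resting cells, 17 were lower in both genotypes, with sums of 4778 CPM in cKO and 4986 in WT S-phase cells, against 11070.0 and 12075 CPM in resting cells. Rag1 had 33.9 CPM in cKO and 35.7 in WT S-phase cells, against 317 and 395 CPM. Notch3, a Notch receptor, had 25.9 CPM in cKO and 24.4 in WT S-phase cells, against 174 and 186 CPM. Of 40 interferon-stimulated genes 19 were lower, and of 19 glucocorticoid and FOXO response genes 13 were lower.

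G2 and M phase cells without Cd8, with at least 4 UMIs of the 4 mitotic genes, were nearer. Of 11922 genes, 0.344% were at least 1.5-fold higher and 1.61% at least 1.5-fold lower in S-phase cells in both genotypes. Of the replication genes 6 of 107 were higher and 3 lower. Ung, a glycosylase that removes uracil from DNA, had 186 CPM in cKO and 182 in WT S-phase cells, against 45.7 and 37.1 CPM in G2 and M phase cells. E2f1, an E2F factor of the G1 to S border, had 90.5 CPM in cKO and 92.2 in WT S-phase cells, against 46.3 and 40.6 CPM. Of 33 G2 and M phase genes 32 were lower, a list near the genes that chose both sets. Of 59 core histone genes 27 were lower, with sums of 2218 CPM in cKO and 2370 in WT S-phase cells, against 4326 and 4655 CPM. The G2 and M phase rule set no upper limit on Rrm2, Clspn and Cdc6, so it does not leave out cells still in S phase. With no measure of DNA content, the names of these sets were not checked against phase.

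S-phase cells with Cd8 had at least 2 Cd8 UMIs and met the same cycle rule. Of 11034 genes, 2.51% were higher and 0.952% lower in the cells without Cd8 in both genotypes. None of 107 replication genes was past 1.5-fold in either direction, and their sums were 13302 CPM in cKO and 13841 in WT cells without Cd8, against 14380 and 14110 CPM with Cd8. Of 14 early DN genes 7 were higher and 0 lower, of 12 gamma-delta and innate-like genes 7 were higher and 1 lower, and of 15 genes of the immature CD8 single-positive and DP stages 8 were lower. Il2ra had 261 CPM in cKO and 228 in WT cells without Cd8, against 67.8 and 49.3 CPM with Cd8. Xcl1, a chemokine gene, had 3.38 CPM in cKO and 2.14 in WT cells without Cd8, against 57.3 and 43.7 CPM.

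Between the genotypes few genes differed in size. Of 8519 genes with at least 100 UMIs in the S-phase cells, 32 were at least 1.5-fold higher in cKO (0.376%) and 25 at least 1.5-fold lower (0.293%), on the scale log2((CPM + 5)/(CPM + 5)). The median log2 fold was -0.02, and the 5th and 95th percentiles were -0.27 and 0.25. With at least 20 UMIs, the minimum used for gene lists, 42 of 10730 genes were higher (0.391%) and 36 lower (0.336%). The added 5 CPM understates the fold of low genes. Counting error alone was considered, and no test was possible.

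Ssbp4 and H2-Q7 were among the genes highest in cKO relative to WT S-phase cells and were read in most cKO cells. Ssbp4, of a family of single-stranded DNA binding proteins, had 143 CPM in cKO and 44.3 in WT, a ratio of 3.22 (2.88 to 3.61), and was found in 96.6% of cKO and 60.3% of WT cells. In resting Ptcra-positive cells it had 123 CPM in cKO and 54.7 in WT. H2-Q7, a non-classical class I gene, had 148 CPM in cKO and 53.3 in WT, a ratio of 2.78 (2.50 to 3.09), and was found in 76.2% and 37.3% of cells. Its near copy H2-Q6 had 24.3 CPM in cKO and 8.14 in WT, and reads may be shared between the pair. Slc15a2, a peptide transporter, had 13.0 CPM in cKO and 2.14 in WT, a ratio of 6.09 (3.77 to 10.3). Gpr65, a proton-sensing receptor, had 51.1 CPM in cKO and 21.8 in WT, and was found in 61.9% and 37.8% of cells. Tsc22d3, the glucocorticoid-induced leucine zipper, had 80.8 CPM in cKO and 36.5 in WT, a ratio of 2.21 (1.94 to 2.53).

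The folds of cKO over WT had the same sign in resting Ptcra-positive cells for the named genes other than Ccl5, Hspa1b and Tnfrsf4. In S-phase cells with Cd8 the sign was opposite for S100a6, Ccl5, S100a4, Dqx1, Tyrobp and Tnfrsf4, from few UMIs for most of them. In resting DP cells it was opposite for Tyrobp and Hspa1b. The log2 fold of Tyrobp was -0.75 in S-phase cells with Cd8 and -0.87 in resting DP cells. In resting Ptcra-positive cells the log2 folds of cKO over WT were 1.91 for H2-Q7, 1.29 for Slc15a2, 1.16 for Gpr65 and 1.20 for Tsc22d3, beside 1.39, 1.34, 1.07 and 1.05 in S-phase cells. Cd69, an early activation gene, had 112 CPM in cKO and 57.6 in WT, a ratio of 1.95 (1.75 to 2.17). Dqx1, an RNA helicase-like gene, had 66.2 CPM in cKO and 26.3 in WT, but was found in 16.5% and 14.5% of cells, so the difference lay in UMIs per positive cell. Tyrobp, an adaptor of innate cells, had 32.6 CPM in cKO and 14.0 in WT, and was found in 10.4% and 6.05% of cells.

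For 3 of the 12 highest genes 1 cell held most of the cKO UMIs. S100a6, a calcium-binding protein, had 24.8 CPM in cKO and 2.85 in WT, but 131 of its 191 cKO UMIs came from 1 cell, and its log2 fold was 1.02 without the top cell of each library, against 1.93 with it. The chemokine gene Ccl5 had 11.8 CPM in cKO and 1.63 in WT, with 70 of 91 cKO UMIs in 1 cell, and a log2 fold of 0.29 without the top cells against 1.34 with them. S100a4, another calcium-binding protein, had 26.0 CPM in cKO and 7.32 in WT, with 140 of 200 cKO and 54 of 72 WT UMIs in 1 cell, and a log2 fold of 0.91 without the top cells against 1.33.

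Interferon-stimulated genes led those lower in cKO. Isg15, a ubiquitin-like modifier, had 25.4 CPM in cKO and 85.4 in WT, a ratio of 0.297 (0.253 to 0.348), and was found in 33.2% and 53.8% of cells. Ifi27, an interferon-induced membrane protein, had 93.2 CPM in cKO and 208 in WT, a ratio of 0.449 (0.412 to 0.489). In the 38 cKO and 51 WT cells with 5000 to 15000 UMIs its log2 fold was -0.16, against -1.11 in all. Other interferon-induced genes were lower too: Rtp4 had 16.6 CPM in cKO and 37.4 in WT, Xaf1 15.9 and 32.1, Ifitm3 16.9 and 32.0, and Oasl2 5.07 and 11.8. The log2 folds of Isg15 and Ifi27 were -1.57 and -1.11 in S-phase cells and -1.67 and -1.03 in resting Ptcra-positive cells.

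Chaperones and a few other genes made up the rest of the lower group. Hsph1, a chaperone of the HSP110 family, had 62.0 CPM in cKO and 128 in WT, a ratio of 0.486 (0.436 to 0.540), and was found in 62.2% and 87.7% of cells. Hspa1b, an inducible HSP70 with a near copy in Hspa1a, had 1.04 CPM in cKO and 11.4 in WT, from 8 and 112 UMIs, while resting Ptcra-positive cells had 2.21 CPM in cKO and 2.20 in WT. Ly6k, a membrane-anchored protein of the Ly6 family, had 33.7 CPM in cKO and 74.5 in WT. Igf2bp3, an RNA-binding protein of fetal cells, had 11.8 CPM in cKO and 23.6 in WT, and Banp, a DNA-binding nuclear protein, 15.1 and 28.6. Tnfrsf4, the receptor OX40, had 3.77 CPM in cKO and 11.9 in WT, but 87 of its 117 WT UMIs came from 1 cell, and its log2 fold was -0.11 without the top cells against -0.95. Of unnamed gene models, Gm26532 had the highest log2 fold, 0.69, and Gm42047 the lowest, -0.62.

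**Figure D4:**
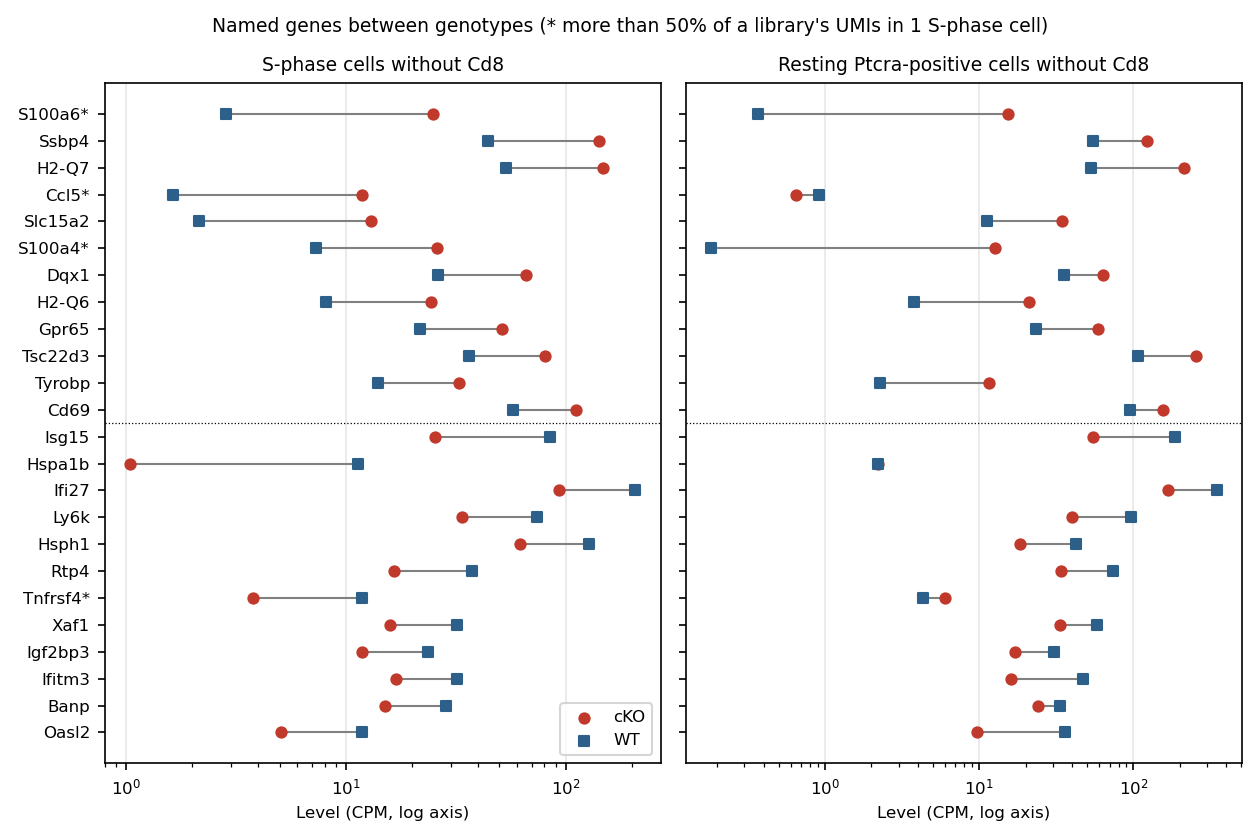
Levels (x axes, CPM, log scale) of the 12 genes highest and the 12 lowest in cKO, in S-phase cells without Cd8 (left) and resting Ptcra-positive cells without Cd8 (right), with cKO as red circles and WT as blue squares. A star marks genes with more than 50% of a library's UMIs in 1 S-phase cell; Ssbp4 stood at 143 CPM in cKO and 44.3 in WT S-phase cells, and Isg15 at 25.4 and 85.4.

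Replication genes had close levels in both genotypes. Of 107 genes with at least 20 UMIs, 0 were at least 1.5-fold higher and 0 lower, which is near the 0.391% and 0.336% over all genes and so is no result about them. Their median log2 fold was -0.05 relative to that of all genes, and their sums were 13302 CPM in cKO and 13841 in WT, a ratio of 0.961 (0.953 to 0.969). Single members ran from -0.44 for Hus1, a clamp of the DNA damage checkpoint, to 0.27 for Fanca, of the Fanconi anaemia repair complex. Mcm6 had 507 CPM in cKO and 495 in WT, Pcna 593 and 604, and Lig1, the ligase that joins Okazaki fragments, 237 and 254. Rrm1, the large subunit of ribonucleotide reductase, had 213 CPM in both. Dnmt1, which copies DNA methylation to the new strand, had 258 CPM in cKO and 287 in WT, and Uhrf1, which recruits it, 336 and 347.

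The other cycle lists held 1 gene past the fold. None of 30 E2F and G1/S regulators, 18 chromatin replication genes or 8 histone variant genes was past 1.5-fold, which at 0.391% higher and 0.336% lower over all genes says little of lists this short. Of 33 G2 and M phase genes 1 was lower, Cenpf, a kinetochore protein, with 15.7 CPM in cKO and 28.4 in WT. The list's sums were 1221 CPM in cKO and 1297 in WT. Of 53 genes of the core histone list, linker H1 genes among them, none was past 1.5-fold. Their median log2 fold was 0.14 relative to all genes while their summed ratio was 0.936 (0.918 to 0.955). The sum was led by Hist1h2ap, an H2A gene with 865 CPM in cKO and 1055 in WT, so the median and the sum differed in sign.

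Stage lists were as short, so their counts past the fold are read against the same shares over all genes. Of 14 early DN genes none was past it, with sums of 513 CPM in cKO and 460 in WT, a ratio of 1.11 (1.07 to 1.16). Cpa3 had 143 CPM in cKO and 110.0 in WT, and Kit 27.7 and 20.3. Of 20 DN3 and Notch genes none was past the fold, with Ptcra at 73.1 CPM in cKO and 73.3 in WT, Notch1 at 190.0 and 192, and Bcl11b, a T-lineage commitment factor, at 327 and 403. Of 19 genes of the stage after beta selection 1 was higher, Egr1, an immediate response factor, with 33.0 CPM in cKO and 19.0 in WT. Id3, an inhibitor of E proteins, had 36.8 CPM in cKO and 55.6 in WT. Among 10 genes of mature T cells Cd69 was higher, and of 17 genes of the immature CD8 single-positive and DP stages none was past the fold. Neither was any of 19 genes of the H3K9 methylation and HUSH silencing machinery, where Resf1, a SETDB1 partner, had 66.2 CPM in cKO and 47.7 in WT and Trim28, the corepressor that recruits SETDB1, 266 and 291. Of 12 genes that an earlier analysis of these libraries had found higher in cKO Treg-like cells, 8 had enough UMIs and none was past the fold, with sums of 291 CPM in cKO and 278 in WT.

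Interferon-stimulated genes were the list furthest below the others. Of 37 with at least 20 UMIs, 10 were lower and 0 higher in cKO, beside 0.336% lower and 0.391% higher over all genes, and 5 had a log2 fold above 0. The median was -0.25 relative to all genes, and the sums were 2182 CPM in cKO and 2592 in WT, a ratio of 0.842 (0.826 to 0.859). Members differed widely. Ly6e had 1276 CPM in cKO and 1305 in WT, and Irf1, an interferon-response factor, 56.96 and 47.2. The list's median was -0.52 in resting Ptcra-positive cells, -0.29 in G2 and M phase cells and -0.42 in S-phase cells with Cd8, all from the same 2 libraries. In the 38 cKO and 51 WT S-phase cells with 5000 to 15000 UMIs it was -0.11.

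Among lists with more than 3 genes read, the glucocorticoid and FOXO response list stood highest. Of 19 genes 5 were higher and 0 lower in cKO, beside 0.391% and 0.336% over all genes, and 18 had a log2 fold above 0, with a median of 0.24 relative to all genes. The sums were 1705 CPM in cKO and 1140 in WT, a ratio of 1.495 (1.46 to 1.53). Zfp36l2, an RNA-binding protein that speeds the decay of AU-rich messages, made up much of that sum, with 836 CPM in cKO and 501 in WT. Ddit4, an inhibitor of mTORC1, had 12.2 CPM in cKO and 4.58 in WT. Fkbp5, a classical glucocorticoid target, had 255 CPM in cKO and 242 in WT. Ssbp4 and Slc15a2 were put on the list with earlier results of these libraries known, so it is not independent evidence of its direction.

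Of 20 heat-shock and dissociation genes 3 were higher and 3 lower in cKO, beside 0.391% and 0.336% over all genes. The immediate early genes Fos (163 CPM in cKO and 105 in WT), Zfp36 (28.2 and 15.0) and Egr1 were higher, and the chaperones Hspa1a, Hspa1b and Hsph1 were lower. Hspa8, the constitutive HSP70, had 2684 CPM in cKO and 3658 in WT, and Hsp90aa1, an HSP90, 1716 and 2284. The list summed to 8048 CPM in cKO and 9945 in WT. These genes respond to handling of live cells, each genotype was handled as 1 library, and handling and genotype cannot be told apart. No member of the p53 target list (18 genes), the glycolysis and MYC list (24) or the cholesterol and lipid list (19) was past 1.5-fold.

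**Figure D5:**
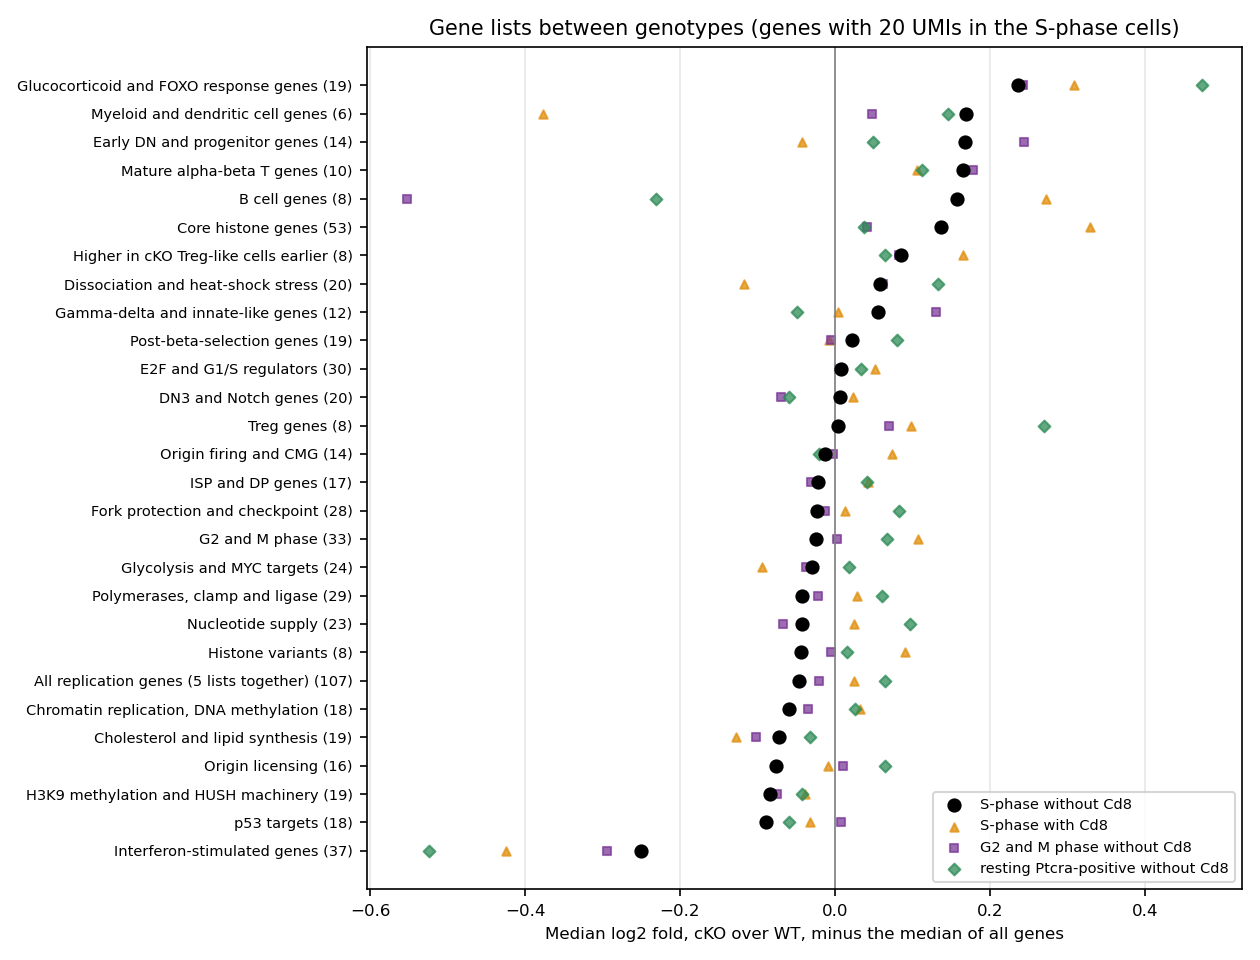
Median log2 fold of cKO over WT of each gene list minus the median of all genes (x axis), in S-phase cells without Cd8 (black) and in 3 other cell sets of the same libraries, with the number of genes in brackets. Of the lists drawn, interferon-stimulated genes lay lowest at -0.25 and the glucocorticoid and FOXO response list highest at 0.24 in the S-phase cells. Replication genes lay at -0.05. The S-phase markers and the NK and innate lymphoid list (3 genes read) are not drawn. Nor is the stromal and erythroid list (3 genes read), which lay at 0.42.

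Genes of other cell types were read at unequal levels, and their counts past 1.5-fold stand beside 0.391% higher and 0.336% lower over all genes. Of 11 B cell genes 8 had at least 20 UMIs and 1 was higher in cKO, Igkc, with 154 of its 156 cKO UMIs in 1 cell, and the list summed to 254 CPM in cKO and 256 in WT. Cd79a was found in 2 cKO and 4 WT cells. Of 13 myeloid and dendritic cell genes 6 had at least 20 UMIs, C1qa, C1qb and Siglech had no UMI, Tyrobp and Fcer1g were higher in cKO, and the sums were 457 CPM in cKO and 470 in WT. Of 10 NK and innate lymphoid genes 3 had at least 20 UMIs, Ncr1, Klrb1c, Eomes and Klrd1 had no UMI, and the sums, mostly Gzma and Nkg7, were 584 CPM in cKO and 600 in WT. Of 14 gamma-delta and innate-like genes 12 had at least 20 UMIs, Cxcr6 was higher, with 22 of its 23 cKO UMIs in 1 cell, and the sums were 1585 CPM in cKO and 1548 in WT. Of 11 stromal and erythroid genes 3 had at least 20 UMIs and 6 had none, Hbb-bt was higher, with 219 of its 378 cKO UMIs in 1 cell, and the sums were 145 CPM in cKO and 109 in WT. Of 9 Treg genes 8 had at least 20 UMIs, Foxp3 was at 0 by the rule, Tnfrsf9 was higher and Tnfrsf4 lower, and the sums were 285 CPM in cKO and 299 in WT. The part of such cells, or of RNA from them, in the differences between genotypes was not tested.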

How the data were processed

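Single cells of thymus enriched with anti-CD25 beads were measured in 1 cKO and 1 WT library. The deposited files hold raw UMI counts per gene and barcode, written by Cell Ranger 6.1.1 per the file headers; CASAVA 1.8 and Seurat 4.0.3 were used per the submitters' processing notes, with no role given. No source used here names the authors' genome build. GENCODE vM21 matched 31107 of 31253 genes by identifier and was used for names only, and RefSeq promoter windows (GRCm38.p6) for sequences.

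The members, gene lists and comparison cells were chosen with earlier results of these data known. UMIs were summed over the cells of a set per library and scaled to CPM. Folds are log2((CPM cKO + 5)/(CPM WT + 5)), over genes with at least 100 UMIs, or 20 for lists, called at 1.5-fold. Shares carry 95% Clopper-Pearson intervals, their differences Newcombe intervals and ratios the exact binomial interval of the counts. Detection was also taken after thinning to 2000 UMIs. Named genes were the 12 highest and 12 lowest folds whose interval excludes 1, up to 3 gene models each way, the 10 furthest each way against other cells, and from each list those with most UMIs or the largest fold; a few list members were named for their role. Resting DP cells had at least 2 Cd8 UMIs, a Cd4 UMI and no cycle UMI; B cells had at most 1 Cd8 UMI and at least 5 UMIs of a set of B cell marker genes together. A few genes are not reported here.

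Doublets were scored with scrublet in scanpy 1.11.5 at an expected rate of 0.06. Its automatic threshold called 1 of 7501 cKO barcodes, so the WT threshold of 0.29 was used for both, marking 129 cKO (1.72%) and 148 WT (2.07%) barcodes; these were removed only as an alternative. Alternatives changed the pseudocount, the minimum UMIs, the scaling, the cell filter and each part of the rule. Thinning to 10000 UMIs and leaving out the cell with most UMIs of a gene were added after the data had been seen. Python 3.11.15, numpy 2.4.6, scipy 1.17.1 and matplotlib 3.10.9 were used, and the code was tested on simulated data.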

Additional observations from a re-analysis of the deposited data

How the results depend on the processing

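Each genotype is 1 library, so no replicate could be left out. No paired analysis was possible because each genotype has 1 library. The share ratio of 0.756 was 0.954 with only barcodes of at least 10000 UMIs, thinned to that depth, which also changes the denominator and the cells, and 0.940 among cells with 5000 to 15000 UMIs, and lay between 0.667 and 0.954 over 11 alternatives. The Kit difference of 1.03 points was -9.70 among cells with 5000 to 15000 UMIs, where 38 cKO and 51 WT cells were left; the Ptcra difference lay between -12.2 and -0.386 and the Trac difference between -2.58 and 5.49 points. The 32 higher genes became 71 with a pseudocount of 1 CPM and 50 with CPM taken without mitochondrial, ribosomal protein and receptor genes. The 25 lower genes became 66 with a pseudocount of 1 CPM, 15 with a minimum of 200 UMIs and 52 among cells with 5000 to 15000 UMIs.

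The replication median of -0.0458 was 0.0054 after thinning to 2000 UMIs, which turned its sign, -0.018 after thinning to 10000, -0.0584 with the stricter cell filter, -0.0581 with no Cd8 UMI, -0.062 with no Trac UMI, -0.065 with 5000 to 15000 UMIs, -0.0326 with at least 5 S-phase UMIs and -0.0261 with at most 1 mitotic UMI. The interferon median of -0.25 was -0.34 with a pseudocount of 1, -0.29 with the other scaling, -0.28 and -0.31 after thinning to 2000 and 10000, -0.11 with 5000 to 15000 UMIs, -0.31 with at least 5 S-phase UMIs and -0.37 with at most 1 mitotic UMI.

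Of 360 alternative values of named genes 226 stayed within their counting interval, 125 moved and 9 turned sign. Applied to counts thinned to 2000, the rule chose 81 cKO and 127 WT cells, of which 14 and 32 were among those described here, and in these mostly other cells the sign turned for Ccl5 (-0.12), Dqx1 (-0.0044), H2-Q6 (-0.0635) and Tnfrsf4 (2.15). Ccl5 was -0.091 without cells holding Kit, and S100a4 -0.0733 with at least 5 S-phase UMIs. Tnfrsf4 was 0.88 with 5000 to 15000 UMIs, 0.35 with no Cd8 UMI and 0.17 with no Trac UMI. Without a turn of sign, these genes came under 1.5-fold in some setting: Ifi27 (-0.16 with 5000 to 15000 UMIs), Hspa1b (-0.49) and Tyrobp (0.48) with at least 2 S-phase UMIs, Tyrobp (0.50) also with 5000 to 15000 UMIs, Ccl5 (0.30) with at most 1 mitotic UMI, Xaf1 (-0.55) after thinning to 2000 UMIs, Banp (-0.50) after thinning to 10000, and Oasl2 (-0.58) without cells holding Kit. The causes were not tested, and depth limits genes with few UMIs.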
